A study of Mus musculus with 31 samples.

Results

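The 9 CXC chemokine genes Cxcl1, Cxcl2, Cxcl3, Cxcl9, Cxcl10, Cxcl14, Cxcl16, Pf4 and Ppbp were followed in RNA-seq of mouse Ly6C-high monocytes, the inflammatory class of blood monocytes. They were taken by symbol from a gene count table with 24411 entries, and all 9 were found. The libraries came from C57BL/6J mice: 3 from blood of healthy mice (healthy blood), 3 from blood of mice with a subcutaneous Lewis lung carcinoma (LLC blood) and 3 from the LLC tumors themselves (LLC tumor). LLC is a transplantable mouse lung carcinoma cell line. In all 3 groups the cells had been sorted as CD11b+, Ly6G-, Ly6Chi and MHC-II-, and the labels name no genetic change and no drug. They give no age or sex, do not say whether animals were pooled, and do not tie a blood library to a tumor library. Nothing in them says that the 3 libraries of a group came from separate animals, so p-values measure only the spread between these samples, which may be technical.

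CXC chemokines are small secreted proteins that guide leukocytes through G protein-coupled receptors. Cxcl1, Cxcl2 and Cxcl3 carry the ELR motif before their paired cysteines and draw neutrophils through Cxcr2. They are early targets of NF-kB after interleukin-1, TNF or Toll-like receptor signals. Cxcl9 and Cxcl10 are induced by interferon and draw activated T cells and NK cells through Cxcr3. Pf4 (platelet factor 4) and Ppbp (pro-platelet basic protein) are stored in platelet alpha granules, and Pf4 is also made by some macrophages. Cxcl16 is made as a membrane-bound protein, is released by the proteases Adam10 and Adam17, and binds Cxcr6. Cxcl14 is a structurally divergent chemokine that healthy epithelia express.

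Of the 9 genes, 7 lie on chromosome 5 of GRCm38.p6. Ppbp (chr5:90768518-90770063), Pf4 (chr5:90772435-90773383), Cxcl3 (chr5:90786101-90788093), Cxcl1 (chr5:90891245-90893121) and Cxcl2 (chr5:90903899-90905938) share a stretch of 137.421 kb. Cxcl9 (chr5:92321331-92328079) and Cxcl10 (chr5:92346638-92348889) lie in a second stretch of 27.559 kb. Cxcl14 (chr13:56288643-56296811) and Cxcl16 (chr11:70454389-70459984) stand alone. The platelet-type genes are thus close neighbors of the neutrophil-attracting genes.

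Promoter sequence from RefSeq (GRCm38.p6) is shown for the chromosome 5 genes because all 7 rose from LLC blood to tumor and they lie in 2 stretches. Each sequence is the gene's own strand and ends at the base before its start site. In the first 5, capitals mark matches on either strand to an NF-kB pattern (GGG, any 5 bases, CC) and, in Cxcl10 only, also to an interferon response pattern (GAAA, any 2 bases, GAAA). In Ppbp capitals mark TATAAA, and no searched pattern lies in the Pf4 stretch.
Cxcl1, chr5:90891120-90891244, plus strand: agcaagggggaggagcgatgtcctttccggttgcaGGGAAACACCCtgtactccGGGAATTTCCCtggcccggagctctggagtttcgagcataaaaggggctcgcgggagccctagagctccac
Cxcl2, chr5:90903774-90903898, plus strand: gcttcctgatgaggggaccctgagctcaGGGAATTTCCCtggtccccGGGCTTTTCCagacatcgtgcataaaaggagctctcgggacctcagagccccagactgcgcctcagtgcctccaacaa
Cxcl3, chr5:90785976-90786100, plus strand: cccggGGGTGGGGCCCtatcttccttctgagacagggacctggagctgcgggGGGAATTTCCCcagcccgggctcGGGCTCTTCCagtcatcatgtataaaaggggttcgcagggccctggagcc
Cxcl9, chr5:92328080-92328219, minus strand: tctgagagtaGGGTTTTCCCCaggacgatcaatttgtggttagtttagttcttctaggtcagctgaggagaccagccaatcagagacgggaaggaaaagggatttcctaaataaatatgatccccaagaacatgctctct
Cxcl10, chr5:92348890-92349139, minus strand: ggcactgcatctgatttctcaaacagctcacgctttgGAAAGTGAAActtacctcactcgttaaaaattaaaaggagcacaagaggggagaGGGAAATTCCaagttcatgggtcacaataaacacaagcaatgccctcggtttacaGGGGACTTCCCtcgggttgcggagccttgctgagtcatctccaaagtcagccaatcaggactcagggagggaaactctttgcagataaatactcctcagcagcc
Pf4, chr5:90772325-90772434, plus strand: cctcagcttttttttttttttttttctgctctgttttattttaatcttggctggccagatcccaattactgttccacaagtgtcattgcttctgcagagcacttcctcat
Ppbp, chr5:90768408-90768517, plus strand: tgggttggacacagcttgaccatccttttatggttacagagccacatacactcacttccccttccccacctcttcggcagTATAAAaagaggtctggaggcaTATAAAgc

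The longest run of letters that the 3 neutrophil-attracting genes share in the 250 bases before their starts is GGGAATTTCCC, 11 letters that contain the NF-kB pattern. The match begins 71 bases before the start of Cxcl1, 97 before Cxcl2 and 73 before Cxcl3. Over windows of that length, 14 of 27025 genes (0.0518%) hold these letters on either strand; they were picked after the 3 sequences had been seen. The looser NF-kB pattern is common, at 45.8% of 32851 windows, and 5 of the 8 members with a window hold it (Cxcl1, Cxcl2, Cxcl3, Cxcl9 and Cxcl10). The interferon response pattern is in 2.98% of windows and in those of Cxcl10 and Cxcl14, and TTCNNNGAA (the gamma-activated pattern) is in 7.02% and in that of Cxcl14. TATAAA is in 12.4% of windows and in those of Cxcl3, Cxcl9 and Ppbp. TGANTCA (AP-1) is in 6.75% and in those of Cxcl10 and Ppbp, and AGATAA, known for factors of the GATA family, is in 9.99% and in that of Cxcl10. All patterns were searched on both strands, and a match describes letters, not a binding site.

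Total counts ranged from 10457492 to 20706412 per library, so 3 counts, taken as the detection floor, stand for 0.145 to 0.287 CPM (a count scaled to the library's total). All 10 monocyte markers (Ly6c2, Csf1r, Ccr2 and others) had counts in every library, at a summed 33633 to 37437 CPM in healthy blood, 23867 to 27388 in LLC blood and 15541 to 20221 in tumor. The 10 macrophage markers summed to 1307 to 1522, 732 to 769 and 1508 to 2345 CPM, most of it Apoe and Adgre1 in blood. Of the 10, 8 passed the test as higher in tumor than in LLC blood (29.6% of all genes), with a median log2 fold change of 5.77, and 8 as higher than in healthy blood (33.5%), with a median of 4.47. Folr2 and Lyve1 met the count filter only through their tumor counts, so a rise of theirs was favored in advance. C1qa was at a mean of 7.42 CPM in healthy blood, 1.76 in LLC blood and 191 in tumor, and Mrc1 at 21.9, 6.95 and 391 CPM. Between the blood groups 5 of the 10 fell (9.61% of all genes), C1qa and Mrc1 among them. Other markers of the list differed: Adgre1 was at a mean of 294, 329 and 191 CPM and Trem2 at 51.5, 74.7 and 83.1 CPM. Of the CXC genes, Cxcl9, Cxcl10 and Pf4 shared the directions of C1qa and Mrc1, lower in LLC blood and higher again in tumor. The part of macrophages in the results was not tested. The 11 NK and T cell markers summed to 201 to 549, 28.6 to 48.7 and 2.16 to 6.03 CPM, and the 13 neutrophil markers to 677 to 921, 795 to 1268 and 348 to 628 CPM. The 9 fibroblast markers separated single libraries: 6.82 to 18.2 CPM in the 3 healthy blood libraries, 942 to 3955 CPM in tumor, but 436 CPM in LLC blood 1 against 4.57 and 5.75 CPM in LLC blood 2 and 3. The epithelial and carcinoma markers summed to 64.4 to 102 CPM in tumor and at most 12.5 CPM in blood, with 5 of 11 at 3 counts or fewer in every tumor library. LLC tumor 1 stood apart from tumor 2 and 3 (chi-square per degree of freedom over genes 48.3 and 38.0, against 6.93 between tumor 2 and 3), and LLC blood 1 from its group (13.97 and 14.6, against 4.72). In bulk libraries such as these, fewer cells of a type and less RNA per cell cannot be told apart.

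The CXC genes were a trace of blood monocyte RNA and a visible share of tumor monocyte RNA. Together they took 0.00528% to 0.00718% of counts in healthy blood, 0.00115% to 0.00221% in LLC blood and 0.256% to 0.371% in tumor. All 9 rose from LLC blood to tumor, against a background of 29.6% of 12337 genes called higher there, and in all 9 every tumor library was above every LLC blood library, as for 23.5% of genes. Cxcl1 and Cxcl14 met the count filter only through their tumor counts, so their place among the 9 that rose was favored in advance. With only the 6 blood libraries fitted, 7 members could be tested. Between healthy blood and LLC blood 3 genes fell, Cxcl9, Cxcl10 and Pf4, against 9.61% of genes called lower, and none rose, against 14%. From healthy blood to tumor 8 rose without overlap, against 33.5% of genes called higher and 26.9% without overlap, and Cxcl9 was not called. Calls are genes with an adjusted p under 0.05 in edgeR's quasi-likelihood test. The tumor libraries enter 2 of these comparisons and the LLC blood libraries 2, so the comparisons are not independent.

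**Figure D1:**
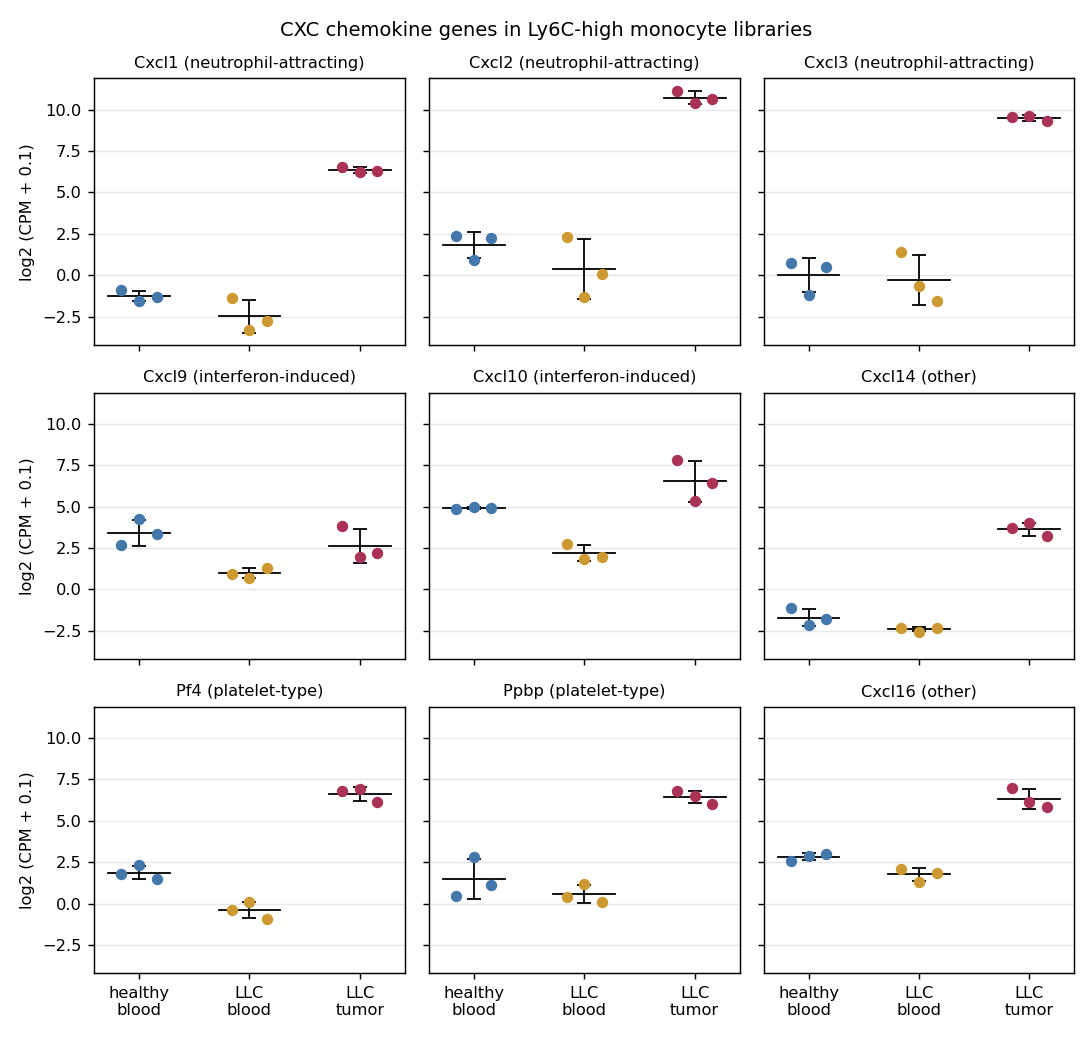
Level of each of the 9 CXC chemokine genes in the 9 libraries as log2 (CPM + 0.1), with 1 point per library, the line at the group mean and the bar at ± SD (n = 3). In every panel the 3 tumor points lie above the 3 LLC blood points; only in the Cxcl9 panel do they overlap healthy blood.

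In the plot of levels by library, the members differ in how the blood groups lie to each other. The blood groups overlapped for the 3 neutrophil-attracting genes and for Ppbp. For Cxcl9, Cxcl10, Pf4, Cxcl14 and Cxcl16 every LLC blood library lay below every healthy blood library, as for 23.8% of all genes tested, and the first 3 of these passed the test. For Cxcl14 this rests on library totals: healthy blood 2 and LLC blood 3 had 2 counts each, at 0.123 and 0.0966 CPM.

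Among the neutrophil-attracting genes, Cxcl2 (ENSMUSG00000058427) was measured at 4.95, 1.81 and 4.59 CPM in healthy blood, 4.75, 0.300 and 0.968 CPM in LLC blood, and 2275, 1345 and 1565 CPM in tumor. The blood groups overlapped, and every tumor library lay far above every blood library. Against LLC blood, tumor was higher by a log2 fold change of 10.19 ± 0.78 (SE; adjusted p = 4.84e-06). Against healthy blood it was higher by 9.05 ± 0.73 (adjusted p = 5.54e-06).

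Cxcl3 (ENSMUSG00000029379) was at 1.55, 0.335 and 1.30 CPM in healthy blood, 2.52, 0.530 and 0.240 CPM in LLC blood, and 738, 799 and 628 CPM in tumor. Tumor 2, which had the least Cxcl2 of the tumor libraries, had the most Cxcl3. Its log2 fold change was 9.85 ± 0.56 against LLC blood (adjusted p = 9.07e-07) and 9.61 ± 0.55 against healthy blood (adjusted p = 7.86e-07).

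The split between these genes rests on shared reads. In all 9 libraries the deposited counts of Cxcl2 and of Cxcl3 were not whole numbers while their sum was, as it is when reads that fit both are divided between them. The sums were 91, 35 and 96 counts in healthy blood, 76, 12 and 25 in LLC blood, and 33375, 24189 and 25372 in tumor. The sum does not depend on how the shared reads were divided, and it rose by a log2 fold change of 10.03 from LLC blood (adjusted p = 6.42e-06) and 9.19 from healthy blood (adjusted p = 6.80e-06). The ratio of Cxcl2 to Cxcl3 counts, which does depend on it, was 3.20, 5.41 and 3.54 in healthy blood, 1.89, 0.565 and 4.04 in LLC blood, and 3.08, 1.68 and 2.49 in tumor. The 3 groups of ratios overlapped except healthy blood and tumor, which were separate.

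Cxcl1 (ENSMUSG00000029380), a Cxcr2 ligand first described as KC, had whole counts in every library and so no sign of shared reads. It had 6, 4 and 5 counts in healthy blood, 3, 0 and 1 in LLC blood, and 1041, 854 and 898 in tumor, which are 94.0, 75.7 and 77.6 CPM there. The tumor libraries were close to each other, with a mean of 82.4 ± 10.1 CPM (SD, n = 3). With 4 counts in all of LLC blood, the ratio of tumor to LLC blood, from summed counts over summed totals, was 939, with an exact 95% interval of 366 to 3448 that covers counting error only. Against healthy blood it was 256 (155 to 457). The fitted log2 fold changes were 9.94 ± 0.41 (adjusted p = 2.08e-07) and 8.15 ± 0.35 (adjusted p = 2.16e-07), and the first depends on the prior count that the fit adds.

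None of the 3 neutrophil-attracting genes passed the test between healthy blood and LLC blood. The log2 fold changes were -1.79 ± 0.85 for Cxcl1 (adjusted p = 0.162), -1.14 ± 0.77 for Cxcl2 (0.316) and -0.23 ± 0.78 for Cxcl3 (0.857). LLC blood 1 had the most of all 3 genes in its group, and it is the library with 436 CPM of fibroblast markers. Without it Cxcl2 passed the test, at -2.48 (adjusted p = 0.0418), and the increases from LLC blood to tumor became 11.53 for Cxcl2, 11.31 for Cxcl1 and 11.07 for Cxcl3. Without LLC blood 3 that of Cxcl3 was 9.20. The part of the other cells in this was not tested.

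Of the interferon-induced genes, Cxcl10 (ENSMUSG00000034855) was tight in healthy blood at 28.5, 31.5 and 30.0 CPM. It was 6.5, 3.53 and 3.82 CPM in LLC blood, lower in every library, and 228, 40.1 and 85.1 CPM in tumor. The tumor group spanned a wide range but did not touch either blood group. Cxcl10 fell by 2.77 ± 0.67 on the log2 scale from healthy to LLC blood (adjusted p = 0.0164) and rose by 5.01 ± 0.70 from LLC blood to tumor (adjusted p = 0.000201). Tumor was also above healthy blood, by 2.24 ± 0.58 (adjusted p = 0.00739). Without LLC tumor 1 the 2 tumor increases were 3.95 and 1.12, and both still passed.

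Cxcl9 (ENSMUSG00000029417) was at 6.36, 19.0 and 9.99 CPM in healthy blood, 1.82, 1.52 and 2.37 CPM in LLC blood, and 13.9, 3.72 and 4.41 CPM in tumor. Healthy blood lay above LLC blood in every library, and tumor reached back into the range of healthy blood only in tumor 1. Cxcl9 fell by 2.63 ± 0.64 from healthy to LLC blood (adjusted p = 0.0165) and rose by 2.20 ± 0.64 from LLC blood to tumor (adjusted p = 0.0141). Tumor against healthy blood gave -0.43 ± 0.58 (adjusted p = 0.535). Without LLC tumor 1 the increase from LLC blood was 1.20, and the comparison with healthy blood became -1.48 (adjusted p = 0.0114).

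The calls of both genes in LLC blood rest on few libraries. The Cxcl9 decrease lost its call without healthy blood 2 (-2.17, adjusted p = 0.0542), LLC blood 2 (-2.49, 0.0728) or LLC blood 3 (-2.85, 0.0545), and that of Cxcl10 without LLC blood 2 (-2.61, 0.0717) or LLC blood 3 (-2.64, 0.0745). The Cxcl9 increase in tumor lost its call without LLC blood 2 (2.01, adjusted p = 0.0513). The summed NK and T cell markers moved with both genes between the blood groups, and Ifng (interferon gamma) was at 0.786, 1.35 and 2.82 CPM in healthy blood and 0.191, 0.138 and 0.0966 CPM in LLC blood. In tumor these markers were lower still, with 2 of 11 at 3 counts or fewer in every library, while Cxcl9 and Cxcl10 were higher than in LLC blood. The 8 dendritic cell markers summed to 99.0 to 107 CPM in healthy blood, 33.5 to 52.5 in LLC blood and 7.76 to 11.2 in tumor. Of 7 tested, 6 fell between the blood groups, against 9.61% of all genes. Healthy blood 2, the library with the most Cxcl9, also held 163 CPM of B cell markers against 17.2 and 24.0 CPM in healthy blood 1 and 3. The part of such cells in the blood difference was not tested.

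**Figure D2:**
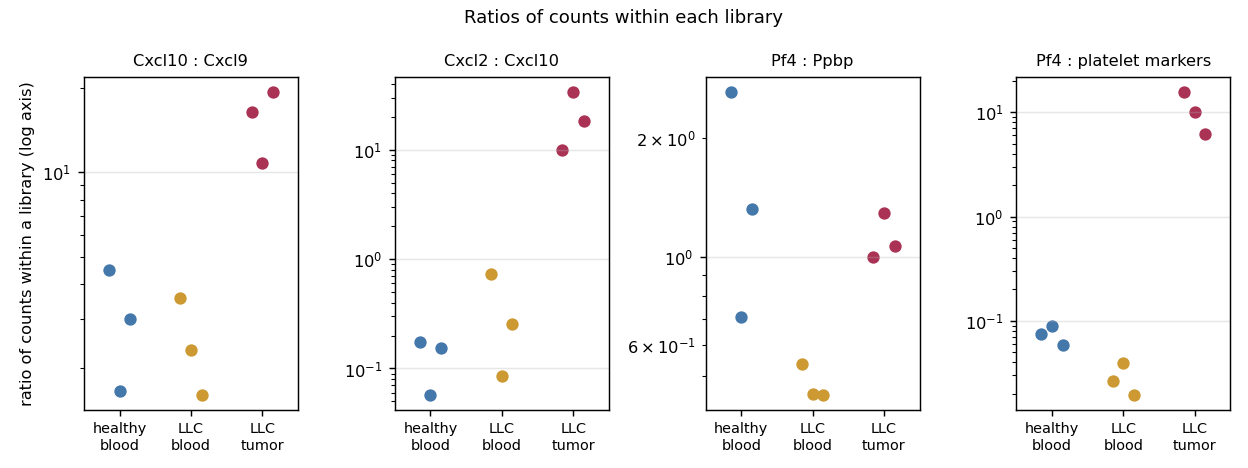
Ratios of 2 count values taken within a library, 1 point per library, each panel with its own log axis. In tumor the Cxcl10 to Cxcl9 ratio lies between 10.8 and 19.3 and in both blood groups at or below 4.48; the Pf4 to platelet marker ratio is at least 6.16 in tumor and at most 0.0894 in blood.

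The 2 interferon-induced genes changed unequally. A ratio within a library does not depend on the scaling between libraries, and since counts are not corrected for length only its change between libraries is read. The Cxcl10 to Cxcl9 ratio was 4.48, 1.66 and 3.00 in healthy blood, 3.58, 2.32 and 1.61 in LLC blood, and 16.4, 10.8 and 19.3 in tumor. Blood groups overlapped and tumor stood apart from both. An exact two-sided permutation test gave p = 0.1 for tumor against each blood group, the smallest that 3 libraries against 3 allow (0.15 after Benjamini-Hochberg adjustment over 18 such ratio tests).

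Roles were set against each other in the same way. The Cxcl2 to Cxcl10 ratio was 0.174, 0.0577 and 0.153 in healthy blood, 0.730, 0.0849 and 0.254 in LLC blood, and 10.0, 33.6 and 18.4 in tumor. Tumor again lay apart from both blood groups (exact two-sided permutation p = 0.1, the smallest possible; adjusted 0.15). The 2 genes were thus not raised in proportion in tumor, and LLC tumor 1, which had the most of both, had the lowest ratio of its group.

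**Figure D3:**
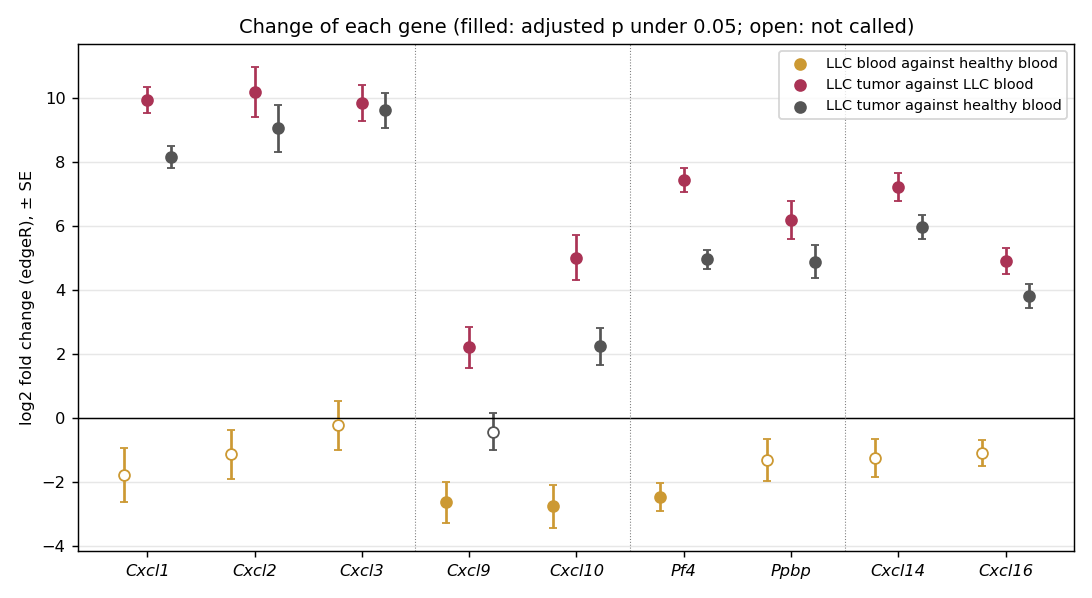
Log2 fold change of each gene from the edgeR fit with its standard error, in 3 comparisons of 3 against 3 libraries; filled points passed at an adjusted p under 0.05 and open points did not. From LLC blood to tumor the neutrophil-attracting genes lie at 9.85 to 10.19, the platelet-type genes at 6.19 and 7.43 and the interferon-induced genes at 2.20 and 5.01.

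Of the platelet-type genes, Pf4 (ENSMUSG00000029373) was at 3.36, 4.85 and 2.76 CPM in healthy blood, 0.669, 0.968 and 0.435 CPM in LLC blood, and 111, 119 and 70.5 CPM in tumor. The 3 groups did not overlap. It fell by 2.47 ± 0.43 from healthy to LLC blood (adjusted p = 0.00371), the smallest adjusted p of the 9 genes in that comparison. It rose by 7.43 ± 0.37 from LLC blood to tumor (adjusted p = 4.89e-07) and by 4.96 ± 0.30 from healthy blood to tumor (adjusted p = 1.10e-06).

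Ppbp (ENSMUSG00000029372), the precursor of a Cxcr2 ligand, was at 1.29, 6.88 and 2.08 CPM in healthy blood, 1.24, 2.14 and 0.966 CPM in LLC blood, and 110.4, 91.8 and 66.0 CPM in tumor. The blood groups overlapped, and healthy blood 2 was the high one. It rose by 6.19 ± 0.59 from LLC blood (adjusted p = 1.87e-05) and by 4.89 ± 0.53 from healthy blood (adjusted p = 3.48e-05). LLC blood against healthy blood gave -1.31 ± 0.65 (adjusted p = 0.179). Without healthy blood 2 that value was -0.34, and the increase from healthy blood to tumor was 5.87.

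The ratio of the 2 platelet-type genes kept a narrow range in tumor and in LLC blood. Pf4 to Ppbp was 1.00, 1.30 and 1.07 in tumor, 2.61, 0.705 and 1.32 in healthy blood, and 0.538, 0.452 and 0.450 in LLC blood. LLC blood lay below both other groups (exact two-sided permutation p = 0.1 each, the smallest possible; adjusted 0.15), and tumor lay within the range of healthy blood.

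The markers of platelets and megakaryocytes went the other way. Their 15 genes summed to 44.4 to 54.3 CPM in healthy blood, 22.1 to 25.3 in LLC blood and 7.14 to 11.9 in tumor. Of the 9 tested, none rose and 5 fell from LLC blood to tumor, against 31.7% of genes called lower. From healthy blood to tumor 6 fell, against 33%, and from healthy to LLC blood 2 fell, against 9.61%. Itgb3, an integrin that monocytes share, made up much of the sum, at 24.6 to 34.6, 13.1 to 17.7 and 4.24 to 6.91 CPM. Without it the other 14 were at 9.86, 29.7 and 16.3 CPM in healthy blood, 7.57, 11.3 and 7.44 in LLC blood, and 2.89, 5.49 and 4.53 in tumor, a sum chosen after its values were seen. Healthy blood 2 was the high library here as it was for Ppbp. In tumor 9 of the 14 had 3 counts or fewer in every library.

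Relative to these markers both platelet-type genes were far higher in tumor than in blood. The ratio of Pf4 to the summed 15 markers was 0.0756, 0.0894 and 0.0588 in healthy blood, 0.0265, 0.0395 and 0.0196 in LLC blood, and 15.5, 10.0 and 6.16 in tumor. That of Ppbp was 0.0289, 0.127 and 0.0444, then 0.0492, 0.0876 and 0.0437, then 15.5, 7.73 and 5.77. For Pf4 all 3 groups were separate; for Ppbp the blood groups overlapped and tumor was separate (exact two-sided permutation p = 0.1 for each separate pair, adjusted 0.15).

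**Figure D4:**
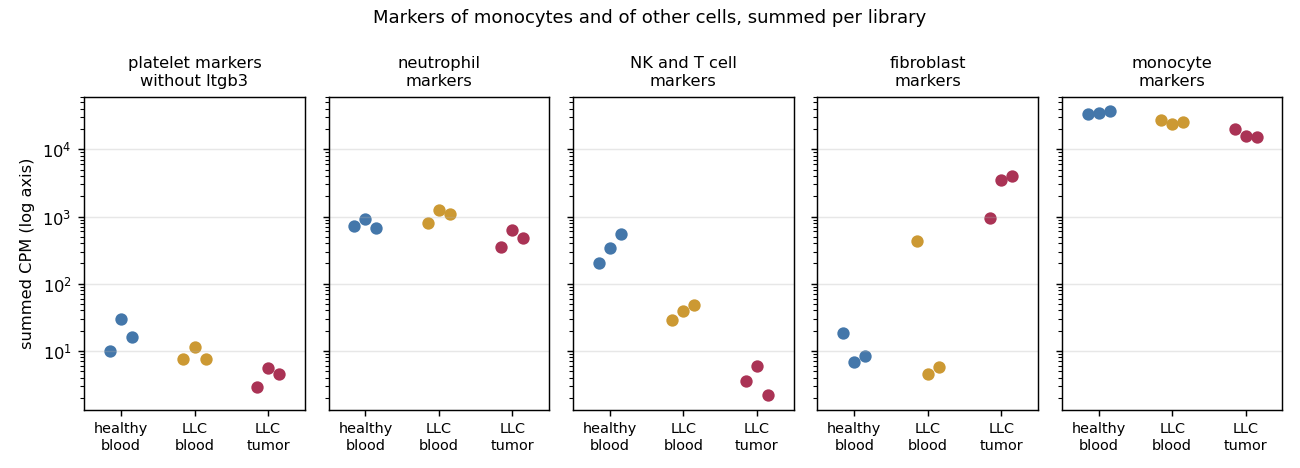
Summed CPM of marker genes per library on a shared log axis, 1 point per library, for platelets without Itgb3, neutrophils, NK and T cells, fibroblasts and monocytes. Platelet markers are at most 5.49 CPM in tumor, and LLC blood 1 stands out at 436 CPM of fibroblast markers.

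The plot of marker sums sets these values beside the fibroblast markers, the non-myeloid list that was highest in tumor. That list was lowest in LLC tumor 1 (942 CPM, against 3487 and 3955), the library with the most Cxcl1, Cxcl2, Cxcl9, Cxcl10, Ppbp and Cxcl16 of the 3. Cxcl3, Pf4 and Cxcl14 were highest in LLC tumor 2. The part of fibroblasts in the tumor levels of the CXC genes was not tested.

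Cxcl16 (ENSMUSG00000018920) was at 5.97, 7.16 and 7.99 CPM in healthy blood, 4.21, 2.39 and 3.53 CPM in LLC blood, and 126, 70.2 and 57.2 CPM in tumor. The 3 groups did not overlap. It rose by 4.90 ± 0.41 from LLC blood (adjusted p = 8.84e-06) and by 3.81 ± 0.38 from healthy blood (adjusted p = 2.19e-05), the latter 3.22 without LLC tumor 1. Between the blood groups it gave -1.10 ± 0.42 and missed the test (adjusted p = 0.0881), although every LLC blood library was below every healthy one, as for 23.8% of all genes tested and 5 of the 9 members. Without LLC tumor 1 it passed at -1.15 (adjusted p = 0.00207), and it also passed with DESeq2 (adjusted p = 0.0187). Its counts were not whole in any library, but their sum with Zmynd15 was, in all 9 libraries; that sum gave 4.94, 3.85 and -1.09 in the same 3 comparisons.

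Cxcl14 (ENSMUSG00000021508) was close to the floor in blood, with 5, 2 and 3 counts in healthy blood and 1, 1 and 2 in LLC blood, and had 141, 177 and 106 counts in tumor. The tumor libraries, at 12.7, 15.7 and 9.16 CPM, were all above blood. The ratio from summed counts over summed totals was 143 against LLC blood (exact 95% interval 55.3 to 525) and 58.2 against healthy blood (31.3 to 122), counting error only. The fitted log2 fold changes were 7.22 ± 0.43 (adjusted p = 1.16e-06) and 5.97 ± 0.38 (adjusted p = 1.47e-06). In blood, 10 against 4 counts left -1.24 ± 0.60 (adjusted p = 0.226), not detectable at this depth.

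The other ligands listed, 6 of the CXC family and the CX3C chemokine Cx3cl1, were scarce. Cxcl17 had no count, and Cxcl13 and Cxcl15 were too low to test. Cxcl5, the neutrophil-attracting neighbor of Ppbp, was at 1.81, 7.18 and 7.0 CPM in tumor and at most 0.138 CPM in blood, and rose from LLC blood (adjusted p = 0.000138). Cxcl11, next to Cxcl10 and a transcribed pseudogene in the RefSeq table, was at 4.42, 0.975 and 1.73 CPM in tumor and at most 0.184 CPM in blood, and rose too (adjusted p = 0.000548). It was highest in LLC tumor 1, as Cxcl9 and Cxcl10 were. Cx3cl1, the ligand of Cx3cr1, was at 0.993, 2.30 and 7.17 CPM in tumor and at most 0.0966 CPM in blood (adjusted p = 0.00178). Cxcl12, a stromal ligand of Cxcr4, was at 0.0903, 2.30 and 1.73 CPM in tumor and did not pass against LLC blood (adjusted p = 0.130), where LLC blood 1 alone held 1.05 CPM. It passed without LLC blood 1, at 5.30 (adjusted p = 0.0134), and without LLC tumor 1, at 2.84 (adjusted p = 0.0340). None of the 4 tested, Cx3cl1 included, passed between the blood groups. Cxcl5, Cxcl11 and Cx3cl1 met the count filter only through their tumor counts, so their rise in tumor was favored in advance. Cxcl12 met it through LLC tumor 2, LLC tumor 3 and LLC blood 1. In blood each of the 4 had 3 counts or fewer per library, except 11 of Cxcl12 in LLC blood 1. That is too few to tell the blood groups apart.

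Of 8 CXC and atypical receptors, 5 could be tested. Cxcr4, the receptor of Cxcl12, was at 221, 110 and 102 CPM in healthy blood, 81.4, 88.3 and 127 in LLC blood and 454, 195 and 207 in tumor. It rose by 1.79 ± 0.45 from LLC blood (adjusted p = 0.00691), and by 1.14 without LLC tumor 1. Ackr3, an atypical receptor that takes up Cxcl12, was at 22.3, 26.9 and 21.2 CPM in tumor and at most 0.956 CPM in blood (adjusted p = 6.20e-05 against LLC blood). It met the count filter only through its tumor counts, so this rise was favored in advance. LLC blood against healthy blood gave 0.79 for Ackr3 (adjusted p = 0.706), and -3.96 without LLC blood 1 (adjusted p = 0.0465). Both rest on few counts, 3, 1 and 2 in healthy blood and 10, 0 and 0 in LLC blood. Cxcr3, the receptor of Cxcl9 and Cxcl10, fell by 2.09 ± 0.60 from LLC blood to tumor (adjusted p = 0.0131; 0.0910 with limma-voom), to 0.632, 0.532 and 0.259 CPM. Cxcr6, the receptor of Cxcl16, fell by 3.00 ± 0.52 from healthy to LLC blood (adjusted p = 0.00378), from 1.5, 3.69 and 5.70 to 0.478, 0.346 and 0.531 CPM. It met the count filter only through its healthy blood counts, so this decrease was favored in advance. From LLC blood to tumor, where it was at 0.271, 0.709 and 0.518 CPM, Cxcr6 gave 0.31 ± 0.60 (adjusted p = 0.676). Both receptors are borne by T cells and NK cells, whose summed markers fell from healthy to LLC blood and were lower again in tumor, and the part of these cells was not tested. Cxcr2, the receptor of the neutrophil-attracting ligands, was at 0.214, 11.5 and 0.430 CPM in healthy blood, 1.15, 9.13 and 4.20 in LLC blood and 3.88, 8.78 and 6.91 in tumor, and was called in no comparison. Healthy blood 2 decided this for the comparisons with healthy blood: without it Cxcr2 was higher in LLC blood by 3.76 (adjusted p = 0.0265) and in tumor by 4.39 (adjusted p = 0.00315). From LLC blood to tumor Cxcr2 stayed uncalled whichever library was left out. Cxcr2 is also on the list of neutrophil markers, and the part of neutrophils was not tested.

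Genes of the NF-kB pathway, which is known to drive the neutrophil-attracting ligands, were tested from a list of 22. Of 20 tested, 13 rose and 2 fell from LLC blood to tumor, against 29.6% of all genes higher and 31.7% lower, with a median log2 fold change of 1.67 against -0.03 for all genes. Among genes lower in tumor, Myd88 went from a mean of 352 CPM in LLC blood to 136 in tumor, and Nfkb1 from 414 to 229. Il1b was at 63.0, 63.2 and 85.3 CPM in LLC blood and 2161, 1186 and 1467 CPM in tumor, an increase of 4.75 ± 0.32 (adjusted p = 2.35e-06). Il1a rose by 8.55 ± 0.89, the receptor Il1r1 by 6.49 ± 0.60, and the feedback inhibitors Tnfaip3 and Nfkbia by 4.13 ± 0.51 and 3.42 ± 0.36. Il1a, Il1r1 and Il6 met the count filter only through their tumor counts, so a rise of theirs was favored in advance. LLC tumor 1 had the most Il1a, Il1b, Tnfaip3 and Nfkbia but the least Il1r1. Without it Il1a rose by 7.56 and Tnfaip3 by 3.29. In LLC blood against healthy blood 3 of the 20 rose and 2 fell, shares near those of all genes (14% and 9.61%). Rel, an NF-kB subunit, was higher in LLC blood by 1.71 ± 0.24 (adjusted p = 0.00155) and the receptor Tlr4 by 0.88 ± 0.13 (adjusted p = 0.00208). Values for Myd88 (0.40), Nfkbid (-0.70) and Rela (-0.27) also passed but lost the call when single libraries were left out.

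Genes of the interferon pathway, which is known to induce Cxcl9 and Cxcl10, were taken from a list of 19. Of 18 tested, 9 fell, 3 rose and 6 were not called from LLC blood to tumor, against 31.7% of all genes lower and 29.6% higher, with a median log2 fold change of -0.47 against -0.03. The receptor chain Ifngr1 fell by 0.95 ± 0.12, the kinase Tyk2 fell by 1.25 ± 0.07 and Irf9 fell by 0.94 ± 0.17, while the kinase Jak2 rose by 1.25 ± 0.12. Against healthy blood 4 rose and 11 fell (33.5% and 33% of all genes), among them Irf1, which fell by 1.52 ± 0.26, and Irf7, which fell by 1.17 ± 0.34. Between the blood groups 1 rose (Tyk2, 0.49 ± 0.07, adjusted p = 0.00174) and 3 fell, against 14% and 9.61% of all genes, including Irf3 (-0.28 ± 0.08, adjusted p = 0.0280), which lost the call when single libraries were left out. Ifng met the count filter only through its healthy blood counts, so a decrease from healthy blood was favored in advance.

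The 3 genes for release of Cxcl16 rose from LLC blood to tumor by small amounts, Rhbdf2 by 0.69 ± 0.07, Adam10 by 0.45 ± 0.13 and Adam17 by 0.41 ± 0.11. The call of Adam10 was lost without LLC blood 1 (0.36, adjusted p = 0.0541). Of 6 tested genes for platelet granule contents other than Pf4 and Ppbp, 4 rose and 1 fell from LLC blood to tumor, against 29.6% and 31.7% of all genes. Thbs1, a matrix protein that macrophages make too, went from 201, 101 and 173 CPM to 24854, 23644 and 24772 CPM (7.48 ± 0.36, adjusted p = 4.17e-07). Srgn, the core protein that holds Pf4 in granules, rose by 3.63 ± 0.29 and Sparc by 4.02 ± 1.18. Sparc was at 26.3 CPM in LLC blood 1 against 0.484 and 0.386 CPM in the other 2, and at 32.3, 172 and 160 CPM in tumor. It met the count filter only through its tumor counts, so its rise was favored in advance. The summed fibroblast markers were also highest in LLC blood 1 of its group and lowest in LLC tumor 1, and the part of fibroblasts was not tested. The change of Sparc was 8.23 without LLC blood 1, 3.39 without LLC blood 2 and 3.36 without LLC blood 3.

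Genes with the most similar pattern over the 9 libraries were sought among the 7685 genes whose mean reached 20 CPM in 1 or more groups, as the smallest mean absolute difference in log2 (CPM + 1) after centring each gene on its own mean. Cxcl2 was closest to Ptgs2 (0.26), Vegfa (0.39) and Arg1 (0.48), and Cxcl3 to Vegfa (0.22), Ptgs2 (0.34) and Arg1 (0.41). Cxcl1 was closest to C3ar1 (0.16), Ccl2 (0.18) and Hilpda (0.20). Cxcl9 was closest to Gbp6 (0.18), a GTPase gene, Ifi205 (0.34) and Apoe (0.42), and Cxcl10 to Bcl2a1b (0.42), Cd83 (0.46) and Bcl2a1d (0.55). Pf4 was closest to the complement genes C1qc (0.26) and C1qa (0.29) and to Ets2 (0.29). Ppbp was closest to Serpinb2 (0.30), Clec4d (0.33) and Il7r (0.33), Cxcl14 to Mertk (0.13), Tiparp (0.13) and Csrnp1 (0.19), and Cxcl16 to Gadd45g (0.23), Trib1 (0.23) and Kcnn4 (0.24). The 2 platelet-type genes had no near gene in common. With a pseudocount of 0.1 in place of 1, all 3 names stayed for Cxcl10, 2 of 3 for Cxcl2, Cxcl3, Cxcl9, Pf4 and Cxcl16, 1 for Ppbp and none for Cxcl1 and Cxcl14.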

How the data were processed

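RNA-seq of the 9 libraries was analysed; the other 22 of the 31 samples, which used other assays, were not analysed here. The authors deposited a table of estimated counts (expected counts, not normalized) under gene symbols, of which 8.07% to 9.18% per library were not whole (further than 0.001 from a whole number; sums within 0.0025 were taken as whole). Per the submitters' processing notes, STAR 2.6.1d, Salmon 1.9.0, Trim Galore, cutadapt and edgeR and the build mm10 were used in the series; which tool made the table is not given in the sources used here. Column heads with BM were read as blood monocyte, from the sample titles; the table does not decide this. Among the symbols 27 had been turned into dates and 2 were duplicated.

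Counts were rounded and fitted with edgeR 4.0.16 (R 4.3.3) on all 9 libraries: TMM scaling, filterByExpr (12337 of 18544 genes with a count kept, all 9 members among them), group as the only term and the quasi-likelihood test, with Benjamini-Hochberg adjustment over all genes tested. Every adjusted p for a gene comes from this fit unless another tool is named. The standard error is the log2 fold change divided by the root of the F statistic. CPM are counts over the library total. Ratio tests were exact permutations. In simulated data the fit was checked for recovery of known changes.

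The members and lists were chosen with earlier results of these data known. All members and the CXC ligands and receptors are named; of other lists, up to 5 called genes with the largest change and a mean of at least 20 CPM. For likeness, the 3 nearest genes were named. Alternatives were RLE, upper-quartile or no scaling factors, no filter, DESeq2 1.42.0, limma-voom 3.58.1 with and without quality weights, 6 libraries only, a replicate block, stricter thresholds and leaving out each library. Sums of Cxcl2 with Cxcl3 and of Cxcl16 with Zmynd15, and platelet markers without Itgb3, were chosen after seeing the data. Ly6g, Trac, Ighm and Ahsp were not used here, and Cxcl16 has no promoter window. Some genes that the naming rule picks are not reported here.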

Additional observations from a re-analysis of the deposited data

How the results depend on the processing

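All 9 genes were called higher from LLC blood to tumor in the main result, and 8 from healthy blood. Between the blood groups 3 genes were called; 1 was called with limma-voom, 6 with quality weights, and 1 at an adjusted p under 0.01. Leaving out each library in turn gave 1 (without LLC blood 2 or without LLC blood 3) to 4 (without LLC blood 1 or without LLC tumor 1). Limma-voom ended the calls of Cxcl10 (-2.85, adjusted p = 0.0697) and Pf4 (-2.47, adjusted p = 0.0697) there and of Cxcl9 from LLC blood to tumor (1.75, adjusted p = 0.0914). Over its alternatives the adjusted p between the blood groups ran from 0.000163 to 0.0728 for Cxcl9, 4.92e-05 to 0.0745 for Cxcl10, 2.51e-08 to 0.0697 for Pf4, 0.00207 to 0.275 for Cxcl16 and 0.0380 to 0.643 for Cxcl2; for Cxcl9 it ran from 0.000609 to 0.0955 (LLC blood to tumor) and 0.0114 to 0.938 (healthy blood to tumor). Over all genes, 2917 calls between the blood groups became 5884 with quality weights, 4889 with only the 6 libraries, 1386 at an adjusted p under 0.01 and 769 when a log2 change of 1 or more either way was also asked, and 1494 to 5064 when a library was left out. That fold minimum left 3538 calls from LLC blood to tumor and 3989 from healthy blood. No value called in the main result changed sign. Ackr3 between the blood groups, uncalled there, passed with the opposite sign without LLC blood 1 (-3.96, adjusted p = 0.0465), on 3 counts or fewer per library. With libraries left out, the log2 fold changes between the blood groups ranged from -1.47 to 0.41 for Cxcl3, -1.74 to 2.48 for Cxcl5, -0.56 to 3.76 for Cxcr2 and -3.96 to 1.60 for Ackr3, and that of Cxcl9 from healthy blood to tumor from -1.48 to 0.063 (the latter without healthy blood 2). Ackr3 was at -0.80 with limma-voom and -1.49 with quality weights. The cause was not tested.

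Unscaled library totals moved the median of all genes from -0.03 to -0.23 (LLC blood to tumor) and from -0.00 to -0.17 (healthy blood to tumor). The share of calls that were higher went from 48.3% to 36.4% and from 50.4% to 40.6%. Upper-quartile factors took it from 59.4% to 46.3% between the blood groups. No called member changed direction. Deviations of same-numbered libraries from their group means had r of -0.10 to 0.30. Healthy blood 1 and LLC blood 1 gave 0.304, against at most -0.161 with another number of LLC blood. LLC blood 3 and LLC tumor 3 gave -0.0999, against up to 0.107 with another number of tumor. Whether the numbers stand for a shared batch or animal was not tested. With the replicate block 3, 9 and 8 members were called and 2788, 7455 and 8092 genes. The counts of Cxcl1 and Cxcl14 in blood limit their blood comparison.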
